A study of Homo sapiens with 2 samples.

Results

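The microRNA and RNA interference machinery was followed through 10 listed genes: the Argonautes AGO1, AGO2, AGO3 and AGO4, their partners TNRC6A, TNRC6B and TNRC6C, the nucleases DICER1 and DROSHA, and DGCR8. The members were taken from the list by current symbol or older alias, out of 17687 named genes on the arrays. Of the 10, 9 had a named probe set, each of them 1 under its current symbol, and DGCR8, which pairs with DROSHA to bind the primary transcript, was not analysed here. Bright enough to be compared were 8, and AGO4 lay below the brightness minimum on both arrays. The arrays came from DLD-1, an established human colorectal cancer line. One culture had received an siRNA against YY1, a zinc finger transcription factor (siYY1), and the other AllStars negative control siRNA (siControl), each at 5 nmol/L with Lipofectamine RNAiMAX as the carrier, and RNA was taken after 3 days. Each group was 1 array, so every value below is a single measurement with no replicate error and no test, and the differences compare these arrays rather than the conditions. Both cultures had received an siRNA, so the setting compares 2 transfected cultures and holds no untransfected one. YY1 had no named probe set, so the knockdown could not be checked and the arrays are taken as labelled. The knockdown used 1 siRNA, so effects of that siRNA on other transcripts and effects of losing YY1 cannot be told apart.

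In animal cells a primary microRNA transcript is cut in the nucleus by DROSHA with DGCR8, exported as a hairpin, and cut again in the cytoplasm by DICER1. One strand of the product is held by an Argonaute protein, which finds messenger RNAs that pair with the seed of the microRNA. TNRC6 proteins bind the Argonaute and bring in the deadenylases that shorten the target's poly(A) tail. A transfected siRNA enters at the Argonaute step. AGO2 is the member known as the slicer that cuts a fully paired target, the activity on which siRNA knockdown rests.

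The values were taken as log2 expression, a scale inferred from their range. They ran from 2.51 to 17.9 in siYY1 and from 2.59 to 17.6 in siControl, and were quantile normalized as a pair. Differences are siYY1 minus siControl in log2 units. Protein-coding genes were compared when the higher of the 2 values reached 7.50, the median of that higher value over all named genes, which left 8747. A higher value by 2-fold or more in siYY1 was found for 7.92% of these genes and a lower one for 9.37%, with a median difference of -0.01 and an SD across genes of 0.75. Over all 17245 named protein-coding genes with no brightness minimum the shares were 4.62% and 5.67%. The balance of calls depended on the scaling: 45.8% of the calls were higher in siYY1 after quantile normalization, 33.4% in the values as deposited and 26.04% after centring on medians. The median of all genes compared moved by -0.12 and -0.19 with those 2 changes. Of 9 colorectal epithelial markers, all measured, 7 were bright enough to be compared and none was past 2-fold. Their differences ran from -0.76 for CDX2 to 0.18 for EPCAM, with KRT19 at -0.40, VIL1 at -0.51 and CDH1 at -0.04. VIL1 was above the minimum only in siControl, at 7.03 in siYY1 and 7.54 in siControl. LGALS4 was dim at 4.50 in siYY1 and 4.53 in siControl, and CDX1 at 5.19 in siYY1 and 4.88 in siControl. Of 4 fibroblast markers 3 were measured, and COL1A2 was the one above the brightness minimum, at 8.84 in siYY1 and 8.62 in siControl. COL1A1 was dim, at 5.70 in siYY1 and 4.60 in siControl. Of 4 leukocyte markers 3 were measured, and CD14 was above the minimum only in siControl, at 6.95 in siYY1 and 7.67 in siControl. The leukocyte marker PTPRC, at 4.98 in siYY1 and 4.96 in siControl, and all 3 endothelial markers were dim on both arrays. The part of other cell types in the results below was not tested.

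All 9 members measured had a higher value in the siYY1 array after quantile normalization, although AGO3 was at -0.06 after centring on medians. In 6 of the 9 the difference was 2-fold or more, no member was 2-fold lower, and the median difference was 1.13, or 2.19-fold. Over all named protein-coding genes 4.62% were at least 2-fold higher and 5.67% lower. Among the 8 compared, 5 were at least 2-fold higher, with a median of 1.21, against 7.92% and -0.01 over all genes compared. AGO4 was left out of these 8 because it was dim. At a threshold of 1.5-fold, 7 of the 8 were higher and none lower, against 19.4% and 21.8% of all genes compared. At 3-fold 1 of the 8, AGO2, was higher and none lower, against 1.89% and 2.44%. TNRC6C reached the brightness minimum only through its siYY1 value. With the filter set on the mean of both arrays the same number of members, 8, was compared. Of these, 5 including TNRC6C were again at least 2-fold higher, against 7.64% of all genes at that filter. The mean also contains the siYY1 value, so this filter is not independent of it. The differences of the 9 members ran from 0.15 for AGO3 to 1.59 for AGO2.

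**Figure D1:**
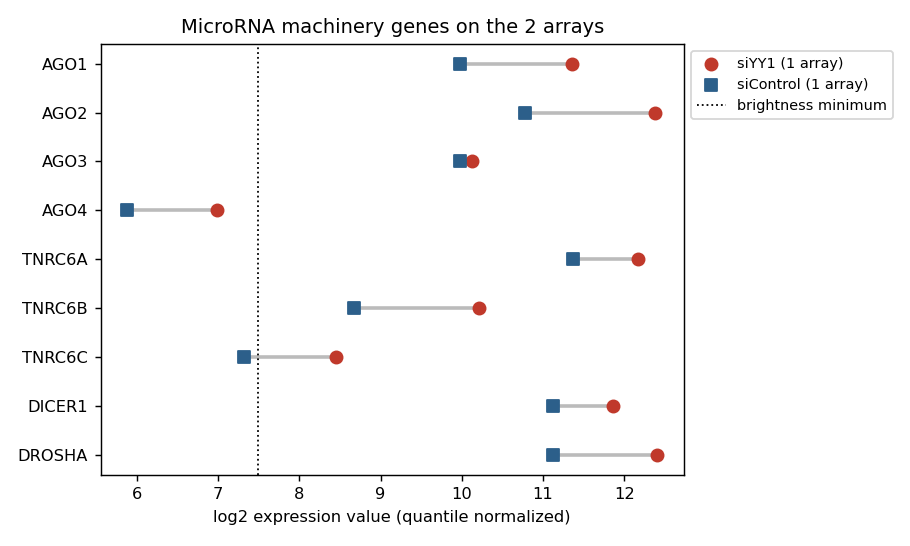
Log2 expression value of each member (horizontal axis, quantile normalized) on the siYY1 array (circle) and the siControl array (square), 1 array each, with the brightness minimum of 7.50 as a dotted line. The siYY1 circle lies right of the siControl square in all 9 rows under this scaling (AGO3 was at -0.06 after centring on medians), by 1.59 for AGO2 and by 0.15 for AGO3.

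The Argonautes differed most among themselves. AGO2 stood at 12.4 in siYY1 and 10.8 in siControl, a difference of 1.59 or 3.01-fold. It ranked 164 from the top of the 8747 genes compared. AGO1, which binds the same guide RNAs but is a poor slicer, stood at 11.4 in siYY1 and 9.98 in siControl, a difference of 1.38 or 2.60-fold. AGO3, its neighbour on chromosome 1, stood at 10.1 in siYY1 and 9.98 in siControl, a difference of 0.15 or 1.11-fold. AGO3 was therefore near the middle of all genes compared, at percentile 58.5. AGO4 was dim at 6.98 in siYY1 and 5.88 in siControl, a difference of 1.10. Dim values carry more background, so the size for AGO4 is uncertain. Among other dim genes, PIWIL1, a germline relative of the Argonautes, was at 6.58 in siYY1 and 5.81 in siControl, a difference of 0.77. This was the largest difference of the 11 genes measured of the germline PIWI clade, which ran from -0.50 to 0.77 with a median of 0.05.

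With no replicates, the closest available yardstick was the disagreement between probe sets of 1 gene, which is not a replicate error. Across the 20 genes with several probe sets, the largest and smallest difference of a gene's probe sets disagreed by a median of 0.38 and by no more than 0.98. AGO2 and AGO1 lay 0.21 apart, less than that median. AGO1 and AGO3 lay 1.23 apart and AGO2 and AGO3 1.45 apart, more than the largest such disagreement. That yardstick lies within a gene and does not measure how far different genes lie apart. The SD of the differences across all genes compared was 0.75. Relative to the median of all genes, AGO3 was at 0.14 to 0.17 under the 4 scalings tried, although its own value was -0.06 after centring on medians. The 3 Argonautes on chromosome 1 lie next to each other on the same strand in the RefSeq order AGO4, AGO1, AGO3, with no compared gene between them. CLSPN, the nearest compared gene before them, was at -0.05 and ADPRS, the nearest after them, at -0.76. ADPRS reached the brightness minimum of 7.50 only through its siControl value, at 6.77 in siYY1 and 7.53 in siControl.

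The promoters of AGO1 and AGO3 are printed because these adjacent genes lay 1.23 apart. Each window runs from 250 bases before to 50 bases after the RefSeq gene start in GRCh38.p14, in the direction of the gene. AGO1 lies at chr1:35882959-35883258 on the plus strand and AGO3 at chr1:35930855-35931154 on the plus strand. Capitals would mark the letters CCATNTT or their reverse complement, a part of the sequence YY1 is known to bind, and neither window holds them. Their content of G and C was 72.3% for AGO1 and 80.0% for AGO3.
AGO1: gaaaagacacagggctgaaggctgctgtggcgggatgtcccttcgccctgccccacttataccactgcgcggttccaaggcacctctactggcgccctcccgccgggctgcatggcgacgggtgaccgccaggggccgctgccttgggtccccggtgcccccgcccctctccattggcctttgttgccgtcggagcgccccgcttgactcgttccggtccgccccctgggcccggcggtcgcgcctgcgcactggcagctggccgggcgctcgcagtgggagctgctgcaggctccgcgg
AGO3: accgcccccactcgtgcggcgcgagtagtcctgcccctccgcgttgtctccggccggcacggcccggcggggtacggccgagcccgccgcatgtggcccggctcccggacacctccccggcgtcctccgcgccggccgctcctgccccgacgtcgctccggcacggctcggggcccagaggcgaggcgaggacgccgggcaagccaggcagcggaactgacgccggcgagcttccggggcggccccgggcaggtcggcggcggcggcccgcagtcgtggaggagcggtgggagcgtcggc

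The TNRC6 genes, which encode the scaffolds that join Argonaute to the deadenylases, were each higher in the siYY1 array. TNRC6B stood at 10.2 in siYY1 and 8.67 in siControl, a difference of 1.54 or 2.90-fold. TNRC6C stood at 8.45 in siYY1 and 7.32 in siControl, a difference of 1.13 or 2.19-fold. TNRC6A, the paralog also known as GW182, stood at 12.2 in siYY1 and 11.4 in siControl, a difference of 0.80 or 1.74-fold. TNRC6B and TNRC6C were past 2-fold and TNRC6A was not. TNRC6B and TNRC6A lay 0.74 apart. This was above the median disagreement between probe sets of 1 gene, 0.38, and below the largest, 0.98, a yardstick that lies within a gene. Of their neighbours, FAM83F before TNRC6B was lower at -1.03 and ADSL after it was at 0.38. SEPTIN9 and TMC6, on either side of TNRC6C, were at 0.99 and 0.79. RBBP6 and ARHGAP17, on either side of TNRC6A, were at 0.62 and -0.24.

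Letters of the YY1 motif were found in the promoters of TNRC6A and TNRC6C and in no other member's window. The longer motif searched was GCCATNTT and the shorter, which it contains, was CCATNTT, each on both strands. The table held windows for 9 of the 10 members, 16 windows in all because DICER1 has 5 starts and TNRC6C has 4. It had none for AGO2. The longer motif was in 2 of the 16 windows, both of TNRC6C, and the shorter in 3. Among all 35116 promoters of the table, 6.58% held the longer and 15.6% the shorter, and among 10753 promoters of genes compared the shares were 10.3% and 16.6%. The windows shown are the one start of TNRC6A, at chr16:24729401-24729700 on the plus strand, and the second start of TNRC6C, at chr17:77958453-77958752 on the plus strand. Capitals mark the match, which is CCATCTT beginning 58 bases before the start of TNRC6A, and AAGATGGC, the longer motif on the other strand, beginning at base 13 of the TNRC6C transcript. A match is a run of letters and shows no binding.
TNRC6A: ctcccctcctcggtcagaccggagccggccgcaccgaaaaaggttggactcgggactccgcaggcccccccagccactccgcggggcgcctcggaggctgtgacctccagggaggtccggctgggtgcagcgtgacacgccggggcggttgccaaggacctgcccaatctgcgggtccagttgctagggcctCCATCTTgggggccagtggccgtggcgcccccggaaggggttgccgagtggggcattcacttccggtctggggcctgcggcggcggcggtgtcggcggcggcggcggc
TNRC6C: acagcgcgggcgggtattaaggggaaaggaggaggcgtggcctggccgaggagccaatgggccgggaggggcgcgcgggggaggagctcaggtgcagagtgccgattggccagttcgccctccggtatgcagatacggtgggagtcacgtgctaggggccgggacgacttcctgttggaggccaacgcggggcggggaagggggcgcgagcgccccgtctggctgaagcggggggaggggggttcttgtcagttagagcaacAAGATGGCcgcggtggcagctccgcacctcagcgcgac

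The nucleases were both higher in the siYY1 array. DROSHA, which makes the first cut, stood at 12.4 in siYY1 and 11.1 in siControl, a difference of 1.29 or 2.44-fold. DICER1, which makes the second, stood at 11.9 in siYY1 and 11.1 in siControl, a difference of 0.74 or 1.67-fold. DROSHA was past 2-fold and DICER1 was not, and they lay 0.55 apart. That gap was also above the median disagreement between probe sets of 1 gene, 0.38, and below the largest, 0.98. The neighbours of DICER1 were SERPINA1, lower at -1.57 with a dim siYY1 value of 6.26, and GLRX5, at -0.15.

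DROSHA has a divergent neighbour whose value lay in the opposite direction. C5orf22 starts 208 bases from DROSHA on the other strand, and the promoter windows of the genes share 293 bases. C5orf22 stood at 8.22 in siYY1 and 10.5 in siControl, a difference of -2.27, or 4.82-fold lower in siYY1. It was the 33rd lowest of the 8747 genes compared. DROSHA and C5orf22 thus lay 3.56 apart, and each kept its direction past 2-fold under all 4 scalings. On the other side the nearest gene compared in RefSeq order was MYO10, at 0.07. Its distance was not measured here, and genes not compared may lie between. The window of DROSHA, at chr5:31532044-31532343 on the minus strand, is printed whole in the direction of DROSHA because all but its last bases, 293 in all, lie in both windows, and neither window holds CCATNTT.
DROSHA: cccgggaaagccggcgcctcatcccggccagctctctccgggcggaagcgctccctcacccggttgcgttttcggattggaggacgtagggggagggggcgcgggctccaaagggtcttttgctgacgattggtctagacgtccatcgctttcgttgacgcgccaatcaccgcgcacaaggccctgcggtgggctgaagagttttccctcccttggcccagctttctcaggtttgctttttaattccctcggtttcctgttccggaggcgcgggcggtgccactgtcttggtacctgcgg

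Over all the measured members, the nearest compared genes outside the list numbered 14. None was at least 2-fold higher, 3 were at least 2-fold lower (FAM83F, SERPINA1 and C5orf22) and their median was -0.14, against 7.92% higher, 9.37% lower and a median of -0.01 over all genes compared. SERPINA1 and ADPRS reached the brightness minimum only through their siControl values.

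**Figure D2:**
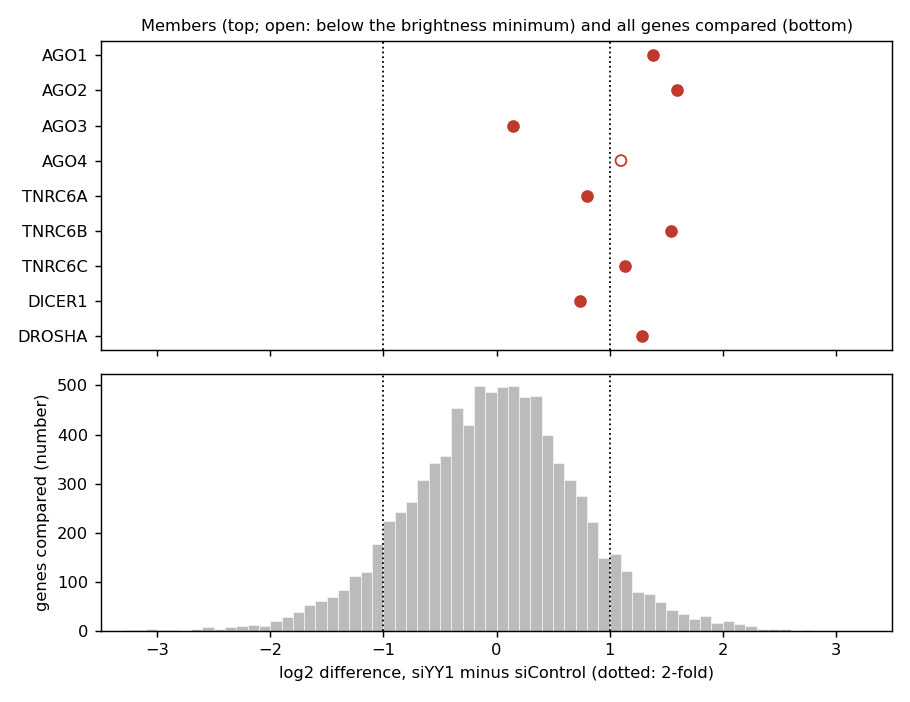
Log2 difference, siYY1 minus siControl, of each member (top, 1 row each) above the number of genes at each difference among the 8747 compared (bottom, bins along the same axis). After quantile normalization the members lie right of 0 (AGO3 was at -0.06 after centring on medians), and AGO1, AGO2, TNRC6B, TNRC6C, DROSHA and the dim AGO4 (open circle) lie past the 2-fold line at 1.

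The size of each difference was followed across scalings. After quantile normalization, in the values as deposited, after centring on medians and after loess on brightness, the same 6 measured members were past 2-fold higher. AGO2 ranged from 1.39 to 1.61 over all settings, TNRC6B from 1.25 to 1.54, AGO1 from 1.17 to 1.38 and DROSHA from 1.08 to 1.31. TNRC6A ranged from 0.54 to 0.81 and DICER1 from 0.52 to 0.75, under 2-fold throughout. AGO3 ranged from -0.07 to 0.15 and was below 0 after centring on medians and after removal of the gene span trend described next.

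**Figure D3:**
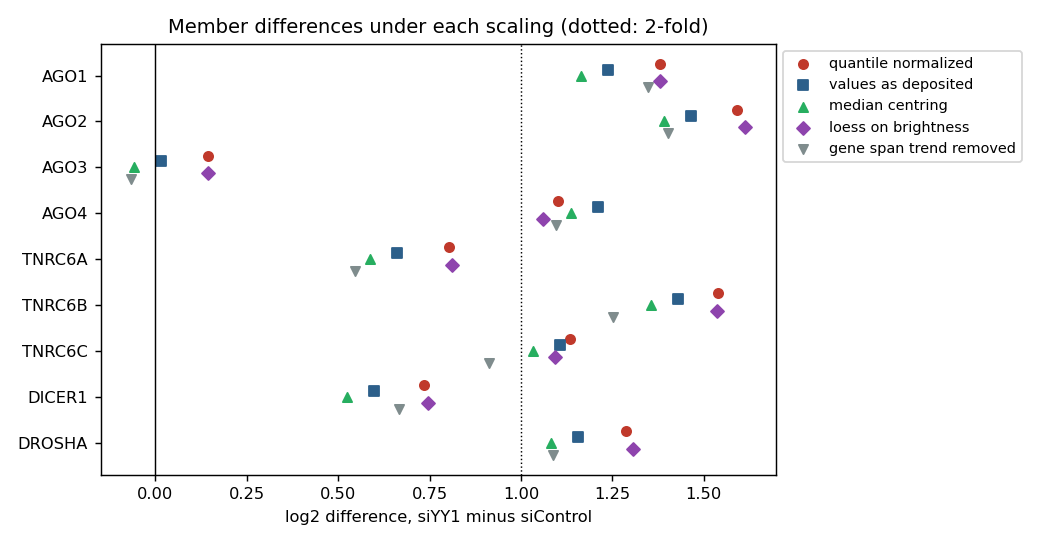
Log2 difference, siYY1 minus siControl, of each member (rows) under 4 scalings and after removal of the gene span trend (symbols). Settings move a member by less than the distance between AGO3, at -0.07 to 0.15, and the others, and TNRC6C crosses the 2-fold line to 0.91 when the span trend is removed.

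Many of the members are wide genes, and the widest genes were higher in the siYY1 array as a class. Genomic span, taken from RefSeq, was 50.3 kb for AGO4, 60.8 kb for AGO1, 71.8 kb for DICER1, 122 kb for AGO2, 132 kb for DROSHA and 142 kb for AGO3. It was 151 kb for TNRC6C, 216 kb for TNRC6A and 291 kb for TNRC6B. The genes compared were divided by span into 10 classes of equal size. The class with the widest spans, from 147 kb, had a median of 0.22 and 17.0% of them were at least 2-fold higher, against 4.0% in the narrowest class. The 3 TNRC6 genes fell in that widest class. Set against their own class, 4.23% of the other genes were at least as high as TNRC6B, 13.6% as high as TNRC6C and 21.9% as high as TNRC6A. AGO2, DROSHA and AGO3 fell in the next widest class, with a median of 0.13, where 3.32% of the others were as high as AGO2, 6.75% as high as DROSHA and 49.2% as high as AGO3. AGO1 and DICER1 fell in the one below, with a median of -0.02, where 4.58% were as high as AGO1 and 16.3% as high as DICER1. The span of AGO4, which was not compared, fell in the next class down, with a median of -0.04. In the class of AGO1 and DICER1, 9.84% of genes were at least 2-fold higher, and in that of AGO4 6.63%. The share over all genes compared was 7.92%. Span as a cause of the member differences was not tested. With the trend on span removed, AGO2 was at 1.40, AGO1 at 1.35, TNRC6B at 1.25, AGO4 at 1.10 and DROSHA at 1.09, while TNRC6C was at 0.91, below 2-fold. Members past 2-fold higher were then 4 of the 8 compared and none was lower, with a median of 1.0. Over all genes compared, 6.79% were then higher and 10.2% lower, with a median of -0.05. Protein length, which differs from span, was not measured here and its part in the result was not tested.

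**Figure D4:**
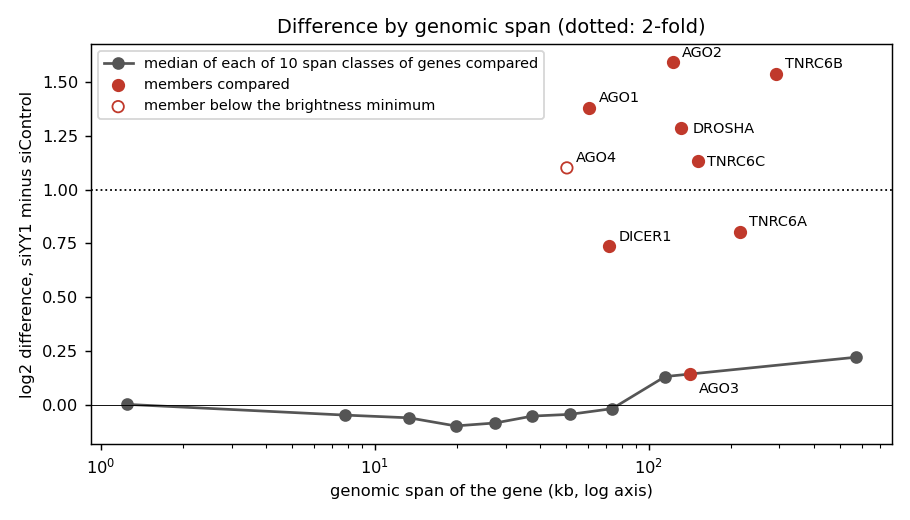
Log2 difference, siYY1 minus siControl (vertical axis), against genomic span in kb (log axis), for the members and for the median of each of 10 span classes of the 8747 genes compared, placed at the geometric middle of its span range. The class median is 0.00 in the narrowest class, lowest at -0.10 in the fourth and 0.22 in the widest, and AGO3 is the member that lies on them.

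Genes that act beside the members on the pathway, or are carried or acted on by microRNAs, passed 2-fold at shares near those of all genes. Of 155 such genes in 8 lists, 111 were compared. Of these, 9 (8.11%) were higher by 2-fold or more and 7 (6.31%) lower, against 7.92% and 9.37% of all genes compared. Their median was 0.11. After centring on medians the balance turned to 5 (4.50%) higher and 15 (13.5%) lower, against 5.03% and 14.3% of all genes, with a median of -0.11. The lists differed in where their members lay. Each list's counts below, after quantile normalization, stand beside the shares of 7.92% higher and 9.37% lower over all genes compared.

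Factors of primary transcript processing and export had a median of 0.12 over 15 genes, with 1 past 2-fold higher, which none was after centring on medians, and 2 lower. SRRT, also called ARS2, which links the cap-binding complex to primary microRNA processing, was at 13.02 in siYY1 and 11.9 in siControl, a difference of 1.16. The large cap-binding subunit NCBP1, its partner, was at 11.3 in siYY1 and 12.9 in siControl, a difference of -1.62. METTL3, the RNA adenosine methyltransferase that marks primary microRNAs, was at 9.85 in siYY1 and 11.4 in siControl, a difference of -1.52. XPO5, which exports the hairpin, was at 0.81.

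The list of Argonaute loading and cofactors had a median of -0.05 over 21 genes, with none past 2-fold higher and 2 lower. P4HA1, a prolyl hydroxylase subunit whose enzyme modifies AGO2, was at -1.18, and TSN, part of the endonuclease that clears the passenger strand, at -1.14. The highest was ELAVL1, an RNA-binding protein that competes with or aids microRNAs on shared targets, at 0.70. The chaperones HSP90AA1 and HSP90AB1, which help Argonaute take up a duplex, were at -0.36 and -0.05. PRKRA, a partner of DICER1, was at 0.38.

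The list of CCR4-NOT and PAN deadenylases, with factors that act beside them, had the highest median of the 8 lists, 0.56 over 14 genes. Of these, 3 were past 2-fold higher and none lower, against 7.92% and 9.37% of all genes compared. After centring on medians these counts were 1 higher and 2 lower, against 5.03% and 14.3% of all genes compared. PAN3, which TNRC6 proteins bind, was at 10.3 in siYY1 and 9.01 in siControl, a difference of 1.33. The poly(A)-binding protein PABPC4 was at 1.17 and the catalytic deadenylase CNOT6L at 1.14. The lowest was CNOT4, a ubiquitin ligase, at -0.91. The median stayed between 0.34 and 0.56 over the scalings and with no brightness filter.

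Decapping and P-body factors, which act after deadenylation, had a median of -0.09 over 20 genes, with 2 past 2-fold in each direction, or 1 higher and 5 lower after centring on medians. PATL1, a scaffold of the decapping complex, was at 1.39 and EDC4, another scaffold, at 1.03. DCP1A, the activator of the decapping enzyme, was at -1.29 and EDC3, an enhancer of decapping, at -1.26.

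Enzymes of microRNA end modification and turnover had a median of 0.06 over 13 genes, with 1 past 2-fold in each direction. TENT4A, a nucleotidyl transferase that adds tails to RNA, was at 1.47, and PNPT1, a mitochondrial exoribonuclease, was at 12.2 in siYY1 and 13.9 in siControl, a difference of -1.66. The PIWI clade, whose genes serve the germline, had 2 of 11 genes bright enough to be compared, HENMT1 at 0.46 and PLD6 at 0.05.

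**Figure D5:**
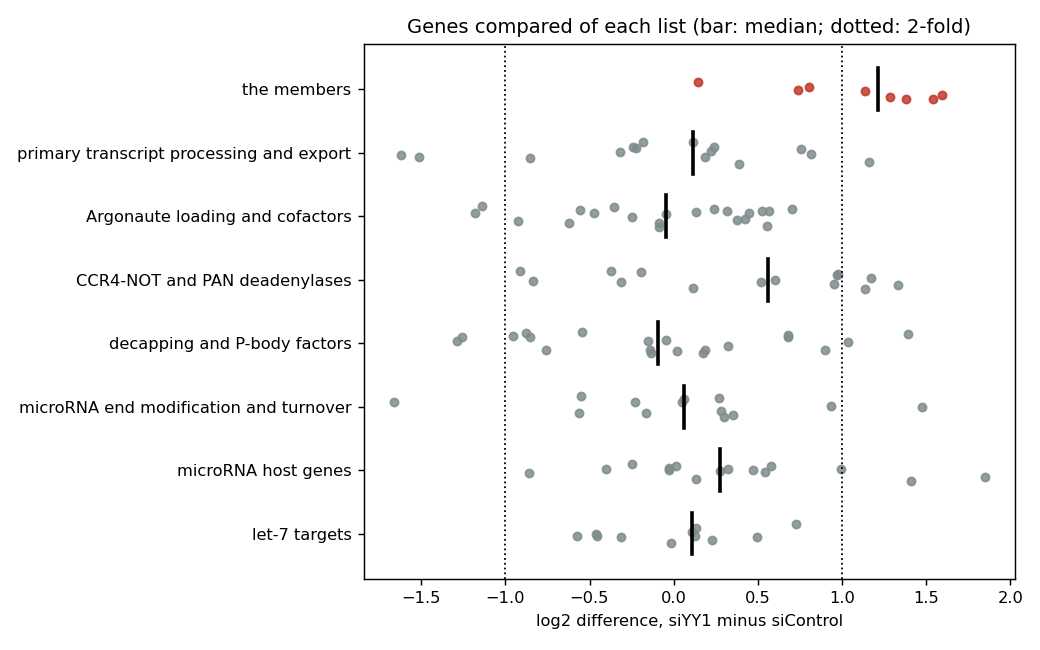
Log2 difference, siYY1 minus siControl, of each gene compared in the members (top row) and in 7 lists of the pathway, 1 point per gene, with the median as a bar. The members' median is 1.21, the deadenylase list follows at 0.56 and the other lists lie between -0.09 and 0.27.

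Genes that carry microRNAs within them had a median of 0.27 over 15 hosts, with 2 past 2-fold higher and none lower. Over all genes compared 7.92% were higher and 9.37% lower. As deposited and after centring on medians 1 host was past 2-fold lower, against 12.2% and 14.3% of all genes compared. SREBF2, a regulator of sterol synthesis that holds miR-33a, was at 12.3 in siYY1 and 10.4 in siControl, a difference of 1.85. HUWE1, a large ubiquitin ligase that holds miR-98 and a copy of let-7f, was at 12.5 in siYY1 and 11.1 in siControl, a difference of 1.41. MCM7, a subunit of the replicative helicase that holds miR-25, miR-93 and miR-106b, was the lowest at 13.4 in siYY1 and 14.3 in siControl, a difference of -0.86. The arrays gave the host messenger RNA, not the microRNA, whose level was not measured here. The RefSeq mature sequences of these hosts are printed with their seed, bases 2 to 8, in capitals, as the products that the members would process and load. miR-98 and let-7f share 1 seed, and so do miR-93 and miR-106b.
miR-33a-5p: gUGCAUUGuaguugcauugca
miR-98-5p: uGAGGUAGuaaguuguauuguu
let-7f-5p: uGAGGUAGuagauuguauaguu
miR-25-3p: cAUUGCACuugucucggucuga
miR-93-5p: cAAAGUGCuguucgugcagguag
miR-106b-5p: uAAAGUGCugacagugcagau

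Genes known as targets of let-7, the family with the seed shared by miR-98 and let-7f, had a median of 0.11 over 11 genes compared, and none was past 2-fold in either direction. They ran from CDC25A, a cell cycle phosphatase, at -0.57 to the GTPase HRAS at 0.73. HMGA2, a chromatin protein and a classical let-7 target, was at 8.04 in siYY1 and 7.91 in siControl, a difference of 0.13. MYC was at -0.31. The median of these targets changed sign with the scaling, between -0.13 and 0.11, as did those of primary transcript processing and end modification. That of Argonaute loading was below 0 under all 4 scalings and 0.14 with no brightness filter.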

How the data were processed

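Biotin-labelled sense cDNA of 2 DLD-1 cultures, 1 per group, was hybridised to a whole-transcript array according to the labels. The authors deposited 1 value per probe set and array, taken here as log2 from the range; the steps behind it are not stated in the labels. The siYY1 array differed by 0.18, 0.07 and -0.13 at the 25th, 50th and 75th percentiles, so the pair was quantile normalized. Of 21448 probe sets, 17709 had 1 gene symbol and 3739 none. Symbols were updated by gene ID through RefSeq GRCh38.p14, and probe sets of a gene were averaged. With 1 array per group there was no test, and sizes were counted at 2-fold. The members, lists and motifs were chosen with earlier results of these data known. Besides members, the genes named are those of each list past 2-fold, its highest and lowest, and the nearest compared neighbours. HSP90AA1, HSP90AB1, PRKRA, XPO5, HMGA2, MYC, PIWIL1, HENMT1, PLD6 and the markers were picked after their values were seen. YY1 had no named probe set, so the knockdown was not checked. The computation was tested on simulated data. Alternatives were other scalings, probe set rules, brightness filters, thresholds and, chosen after seeing the data, removal of a trend on gene span. The number of arrays limits the precision. Tools were matplotlib 3.10.9, statsmodels 0.14.6, scipy 1.17.1, pandas 2.3.3, numpy 2.4.6 and Python 3.11.15.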

Additional observations from a re-analysis of the deposited data

How the results depend on the processing

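The 8 compared members had 5 at least 2-fold higher in siYY1 and none lower with every scaling and with the filter on the mean of both arrays. Over all genes compared at these settings, 5.03% to 7.92% were higher and 8.63% to 14.3% lower. Both brightness filters use the siYY1 value, so neither is independent of it. Each member has 1 probe set, so the choice of the brightest could not move it. Removal of the gene span trend, chosen after seeing the data, left 4, since TNRC6C was then at 0.91, against 6.79% of all genes compared. With no brightness filter the count was 6 of 9, against 4.62% of all named protein-coding genes. With genes past the 75th percentile of brightness 3 of the 5 members left were past 2-fold, against 8.31% of genes. At 3-fold the count was 1, AGO2, against 1.89% of all genes compared, and at 1.5-fold it was 7, against 19.4%. The median of the members ranged from 1.0 to 1.29. Single member differences kept their side of 2-fold in 35 of 36 repeats with another scaling or the span trend removed. Among the lists, the median of the deadenylase list ranged from 0.34 to 0.56 and 4 other medians changed sign over the scalings or without the brightness filter. All lists together had 12 past 2-fold lower as deposited and 15 after centring, against 7, and 5 higher after centring, against 9. Decapping factors past 2-fold lower were 4 in the values as deposited and 5 after centring on medians, against 2. Genes of the deadenylase list past 2-fold higher were 1 after centring, against 3. Those past 2-fold lower were 1 as deposited and 2 after centring, against 0, and microRNA hosts 1 with either, against 0. Decapping factors past 2-fold higher were 1 as deposited, after centring and after loess, against 2, and primary processing factors 0 after centring, against 1. The planned removal of a trend on protein length was not run, because no protein lengths were used here. No paired analysis was possible because each group is 1 array.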
